A study of Mus musculus with 2 samples.

Results

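Chemokines are small secreted proteins that direct cell migration, and this account describes the genes encoding them and their receptors in mouse fetal thymic stromal cells grown in 2 kinds of culture. The members were all probes that the array design names as a CC, CXC, CX3C or XC chemokine or receptor, with Ppbp and Pf4. They comprised 71 of 41174 probes and 53 of 19505 named genes, of which 35 encode ligands and 18 encode receptors. Thymic lobes of C57BL/6 fetuses at embryonic days E14.5 or E15.5 had been kept in fetal thymus organ culture, for 8 days from E14.5 and 9 days from E15.5 by the sample labels. All lobes received 1.35 mM deoxyguanosine, an agent that depletes thymocytes, so that both kinds of culture share this treatment. The trypsin-dispersed cells were then grown for 72 h either as a reaggregate on a membrane, termed reaggregation thymus organ culture (RTOC), or flat on a dish, termed 2D culture. The question was how gene expression in 3-dimensional RTOC differs from that in 2D culture.

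Each of the 2 arrays carried RNA of both cultures from 1 stage, with 2D culture labelled with Cy3 and RTOC with Cy5. No array had the dyes swapped, so a dye preference of a probe and an effect of culture cannot be told apart. Nor can stage be told apart from the days in organ culture or from the array. The sources used here do not give the number of fetuses behind a sample and name no sorting step. A p-value thus reflects only differences between 2 arrays. The spread of each probe was drawn toward that of all tested probes, so that the SD given beside a p-value does not set it alone. In RNA of whole cultures, fewer cells of a type and less RNA per cell cannot be told apart. All 13 thymic epithelial markers, including Foxn1 and Psmb11, were well above background in all 4 channels. Of 13 T lineage markers, 8 were tested, Cd3d, well above background in RTOC alone, and Cd3g were called higher in RTOC, Cd8b1 was called lower, and Cd8a, Rag2 and Zap70 were not well above background in any channel. Their summed intensity was 1813 and 2750 in 2D culture and 3860 and 2117 in RTOC, at E14.5 and E15.5 respectively. Such a sum, here and below, adds probes of unlike brightness, follows the brightest of them and does not measure an amount of cells.

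Chemokines act through G-protein-coupled receptors and are commonly divided into homeostatic members, which are made constitutively and place cells within lymphoid organs, and inflammatory members, which are induced by cytokines or microbial products. In the thymus, Ccl25, Ccl21 and Cxcl12 are made by stromal cells and attract lymphoid progenitors through Ccr9, Ccr7 and Cxcr4, respectively, and the transcription factor Foxn1 is required for thymic Ccl25 and Cxcl12 expression. Inflammatory CXC members such as Cxcl1 attract neutrophils and are known targets of NF-kB, whereas Cxcl9, Cxcl10 and Cxcl11 are induced by interferons.

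The sequences before the transcription starts of genes on which the comparison turns are shown because these genes moved in opposite directions while several hold the same short motifs. They were taken from RefSeq in the build GRCm38.p6, in which 41 of the genes (Cxcl3, described below, included) matched 47 promoters, and each runs 5′ to 3′ on the strand of the gene and ends at the base before the listed start. Capitals mark matches on either strand to 4 motifs. The first, GACGC, holds the core that Foxn1 binds. The second, GGGNNTTNCC, describes a kB site. The others are an interferon response element, GAAANNGAAA, and a TATA box, TATAAA. Both listed starts of Ccl25 and the start of Cxcl12 are given with 120 bases.
Ccl25, chr8:4325090-4325209, plus strand: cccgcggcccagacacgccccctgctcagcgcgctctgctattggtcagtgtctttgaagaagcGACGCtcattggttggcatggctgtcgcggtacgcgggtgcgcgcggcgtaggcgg
Ccl25, chr8:4349468-4349587, plus strand: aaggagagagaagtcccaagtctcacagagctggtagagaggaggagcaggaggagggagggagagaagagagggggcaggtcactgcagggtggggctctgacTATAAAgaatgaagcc
Cxcl12, chr6:117168415-117168534, plus strand: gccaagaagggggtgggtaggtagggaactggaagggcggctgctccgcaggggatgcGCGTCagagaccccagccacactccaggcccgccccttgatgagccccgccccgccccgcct
The first start of Ccl25 and the start of Cxcl12 each had 1 match to GACGC, from 56 to 52 and from 62 to 58 bases before the start, that of Cxcl12 being on the opposite strand. The second start of Ccl25 had a TATAAA and no GACGC. Within 250 bases GACGC occurred in 22.6% of all 32851 promoters and in 10.6% of the 47 chemokine and receptor promoters. It also stood before Ccl9 and Ccrl2, which were not called (log2 ratios 0.32 and 0.81, adjusted p 0.421 and 0.0691 by limma).

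The neutrophil-attracting genes Cxcl1, Cxcl2 and Cxcl3, which lie in a single group on chromosome 5, are shown in the same way.
Cxcl1, chr5:90891125-90891244, plus strand: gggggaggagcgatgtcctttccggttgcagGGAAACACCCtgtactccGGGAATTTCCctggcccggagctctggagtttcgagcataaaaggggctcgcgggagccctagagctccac
Cxcl2, chr5:90903779-90903898, plus strand: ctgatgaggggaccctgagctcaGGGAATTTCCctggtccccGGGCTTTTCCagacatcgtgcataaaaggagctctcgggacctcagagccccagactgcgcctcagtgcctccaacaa
Cxcl3, chr5:90785981-90786100, plus strand: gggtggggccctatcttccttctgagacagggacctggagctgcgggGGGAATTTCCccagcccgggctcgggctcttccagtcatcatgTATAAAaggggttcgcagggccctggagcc
All 3 held the same letters, GGGAATTTCC, from 71 to 62, from 97 to 88 and from 73 to 64 bases before the start, respectively. Cxcl1 and Cxcl2 each held another match to GGGNNTTNCC. The interferon-induced genes Cxcl9 and Cxcl10 are shown with 250 bases, which the matches of Cxcl9 and the GAAANNGAAA of Cxcl10 needed.
Cxcl9, chr5:92328080-92328329, minus strand: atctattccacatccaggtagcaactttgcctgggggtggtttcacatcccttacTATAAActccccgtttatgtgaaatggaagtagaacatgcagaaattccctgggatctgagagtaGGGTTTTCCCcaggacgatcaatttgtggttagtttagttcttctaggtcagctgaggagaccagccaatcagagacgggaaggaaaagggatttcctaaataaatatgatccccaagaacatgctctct
Cxcl10, chr5:92348890-92349139, minus strand: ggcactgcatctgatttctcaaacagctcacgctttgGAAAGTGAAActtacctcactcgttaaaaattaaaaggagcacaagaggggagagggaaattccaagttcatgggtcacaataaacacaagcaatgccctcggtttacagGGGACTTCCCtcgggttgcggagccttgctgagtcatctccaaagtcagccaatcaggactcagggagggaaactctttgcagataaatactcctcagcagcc
Cxcl10 held GAAAGTGAAA at 213 to 204 bases and a kB match at 103 to 94 bases before the start, and Cxcl9 held a kB match at 130 to 121 bases. GGGNNTTNCC occurred in 4.11% of all promoters and in 23.4% of the chemokine and receptor promoters, and GAAANNGAAA in 2.98% and 6.38%. As given below, kB matches stood both before genes that were lower in RTOC (Cxcl1 and Cxcl3) and before genes that were higher (Cxcl9 and Cxcl10). A match describes these letters only, and no binding was measured.

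Values are intensities after quantile normalization of the 4 channels, in arbitrary units, and a log2 ratio above 0 means a higher signal in RTOC than in 2D culture. A probe was tested with limma if it exceeded background clearly, by the scanner software's own flag (well above background), in 1 or more channels of each array, and it was called where the Benjamini-Hochberg adjusted p was under 0.05. Of the 71 member probes, 48 were tested, 18 were called higher and 10 lower in RTOC, and 20 were not called. These 28 probes were 58.3% of the members tested, whereas 28.8% of all 23681 probes tested were called (15.2% higher and 13.6% lower). A probe can pass the filter through the culture in which it is bright, so that the called share among the tested members carries this selection. Of the 36 member probes well above background in all 4 channels, 13 were called higher and 9 lower. With only such probes tested, these counts were 14 and 9, beside 2842 higher and 3233 lower of all 20157 probes. The median size of the log2 ratio, without its sign, was 1.62 over the tested members and 0.60 over all tested probes. Of the tested members, 17 were at least 2-fold higher in RTOC on both arrays and 9 at least 2-fold lower, against 10.8% and 9.35% of all tested probes. The sign differed between the arrays for 8 of the 48 members and for 4731 of all tested probes.

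**Figure D1:**
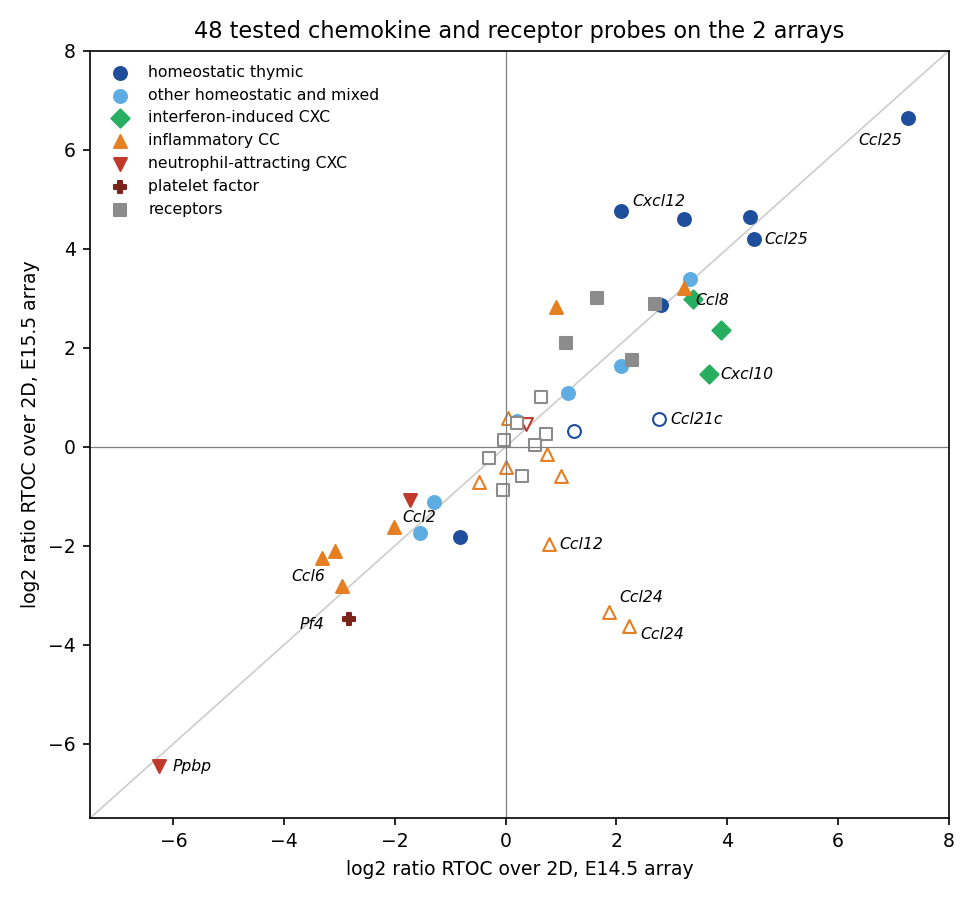
Log2 ratio of RTOC over 2D culture on the E15.5 array (vertical) against the E14.5 array (horizontal) for the 48 tested member probes; symbols give the group, filled symbols were called at an adjusted p under 0.05, and the grey line marks equal ratios. The 2 brighter probes of Ccl25 lie near the line at high ratios and that of Ppbp near it at the low end, and the 2 probes of Ccl24 lie far below it with 1.86 and 2.23 at E14.5, taken against 2D signals not well above background, and −3.34 and −3.63 at E15.5, the last with such a signal in RTOC.

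Of 6 homeostatic thymic chemokines with a probe, 5 were tested and 3 were called higher in RTOC. By the brightest probe of each gene, Ccl25, Cxcl12 and Ccl19 were called higher, Ccl17 was called lower, Ccl21c was not called, and Ccl22 was not tested. Among all 13494 genes tested by the same rule, 28.1% were called, 15.4% higher and 12.7% lower. The median log2 ratio of the 5 tested genes was 2.83 (2.77 at E14.5 and 2.86 at E15.5), against 0.00 for all tested genes. With an alternative background correction, normexp with an offset of 50 followed by loess, the median was 1.65, and 3 genes were called higher and none lower. With no replicate block, that is, with the 4 channels fitted without pairing by array, 2 of the 5 genes were called. This list was chosen with earlier results in view, and its median has no test.

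Ccl25, the ligand of Ccr9 that attracts thymocyte progenitors, had the largest ratio of the members. Its brightest probe read 1750 in 2D culture and 269914 in RTOC at E14.5, and 1892 and 188831 at E15.5. Both RTOC values thus lay far above both 2D values, and neither culture varied much between the arrays. The mean log2 ratio was 6.96 ± 0.44 (SD, n = 2 arrays), or 124-fold, with an adjusted p of 0.0016, and this probe ranked 2 from the top of all tested probes. A second probe read 1435 and 31980 at E14.5 and 863 and 15848 at E15.5, a mean log2 ratio of 4.34 ± 0.20 (adjusted p = 0.0016). The third probe, which the array design assigns to a cDNA clone and not to the RefSeq transcript, was dim and read 68.8 and 163 at E14.5 and 91.9 and 114 at E15.5. Its log2 ratio of 0.78 ± 0.66 was not called (adjusted p = 0.122). The first 30 of the 60 bases of each probe show that they interrogate different stretches of sequence.
Ccl25, brightest probe: gaggaacgagaggatagtgagtgtgtgaga
Ccl25, second brightest probe: agactctcagactgaaaggaagaagtcaaa
Ccl25, dimmest probe: gcattttttactttgtgtacttcattgtag
The longest run of bases shared on the same strand with another probe of the gene was 8 bases or fewer for all 3 probes, and the sources used here do not place them in the exons.

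Cxcl12, the ligand of Cxcr4, was also higher in RTOC, but by an amount that differed between the arrays. Its brightest probe read 9182 in 2D culture and 39004 in RTOC at E14.5, and 1568 and 42836 at E15.5. The RTOC values were alike, while the 2D value was lower at E15.5 than at E14.5, and all RTOC values lay above all 2D values. The log2 ratios were 2.09 and 4.77, with a mean of 3.43 ± 1.90 and an adjusted p of 0.0149. The second probe gave 3.23 and 4.60, with a mean of 3.91 ± 0.97 (adjusted p = 0.0028).

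Ccl19, a ligand of Ccr7, had similar ratios on both arrays with either probe. The first probe rose from 172 to 1206 at E14.5 and from 500 to 3621 at E15.5, a mean log2 ratio of 2.83 ± 0.03 (adjusted p = 0.0023). The second probe rose from 73.0, not well above background, to 1558 and from 257 to 6394, a mean of 4.53 ± 0.16 (adjusted p = 0.0016). The alternative background correction gave 1.65 and 2.61, and with no replicate block the first probe was not called (adjusted p = 0.0508). In each culture the E15.5 value was above the E14.5 value with either probe.

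The other ligands of Ccr7 are encoded by several near-identical Ccl21 copies that this array cannot tell apart, and its probe carries the name Ccl21c. The probe read 1753 in 2D culture and 11983 in RTOC at E14.5, and 24974 and 36604 at E15.5. The 2D value at E15.5 thus exceeded the RTOC value at E14.5, so that the cultures overlapped. The log2 ratios of 2.77 and 0.55 had a mean of 1.66 ± 1.57 and were not called (adjusted p = 0.069). Under 2 of the alternative settings, centring each array on its median and testing only probes bright in every channel, the adjusted p was 0.0171 and 0.047, respectively.

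Ccl17 and Ccl22 bind Ccr4 and are thymic chemokines of the medulla. Ccl17 read 100 in 2D culture and 56.5 in RTOC at E14.5, and 115 and 32.7 at E15.5. Neither RTOC value was well above background, and no lower limit on the difference can be given. The fitted log2 ratio of −1.32 ± 0.70 had an adjusted p of 0.0349. The call was lost with this alternative background correction (log2 ratio −0.10, adjusted p = 0.599) and with no replicate block (adjusted p = 0.0588). Ccl22 was not well above background in any channel.

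**Figure D2:**
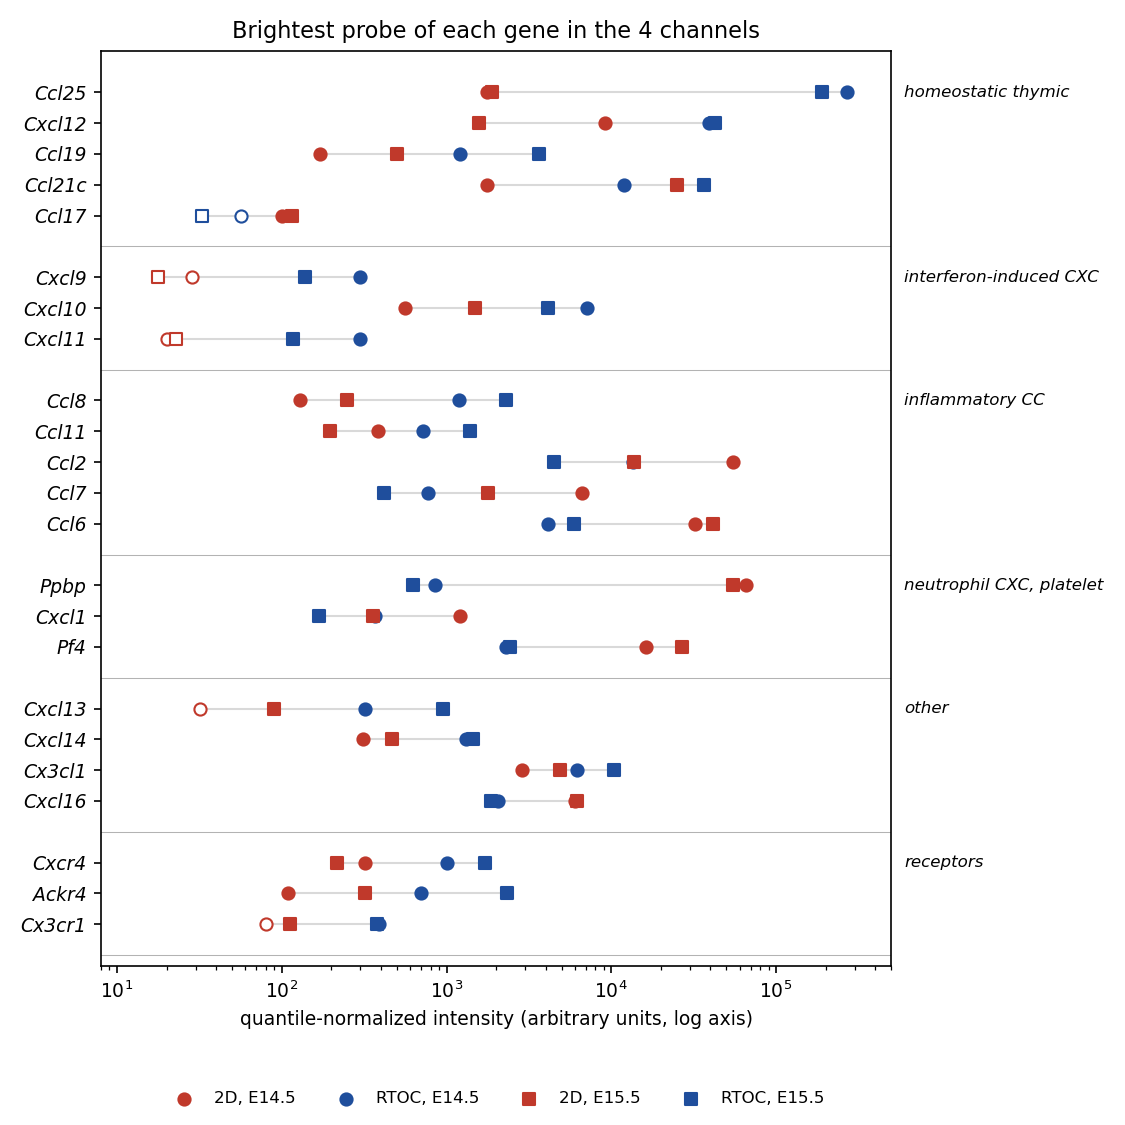
Quantile-normalized intensity on a log axis of the brightest probe of 23 genes in the 4 channels, in red for 2D culture and blue for RTOC, with circles for E14.5 and squares for E15.5; open symbols were not well above background, and levels are to be compared within a gene only. The RTOC values of Ccl25, 269914 and 188831, lie far to the right of its 2D values, 1750 and 1892, and the order is inverted for Ppbp, with 851 and 625 in RTOC and 65475 and 54736 in 2D culture.

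Markers of other cell types differed between the cultures as well. Of 13 thymic epithelial markers, 9 were called higher and 1 lower in RTOC, and their summed intensity ranged from 322400 to 639720 in 2D culture and from 1158230 to 1240540 in RTOC. Ctsl, Krt8, Krt18 and Krt5 were the brightest of them, and Krt8 and Krt18 were not called. Foxn1 itself read 442 and 2830 at E14.5 and 552 and 3420 at E15.5, a log2 ratio of 2.65 ± 0.03 (adjusted p = 0.0026), or 1.95 with the alternative background correction. Of 8 mesenchymal and fibroblast markers, 3 were called higher and 4 lower, with sums from 330766 to 431114 in 2D culture and from 272544 to 291534 in RTOC. Col1a1 and Col1a2, both called lower, were the brightest of these in 2D culture, while Dcn, Lum and Pdgfra were called higher. Of 7 endothelial markers, 5 were called higher and none lower, and their sums were 751 to 1646 and 6964 to 10589. Among these 5, Emcn and Esam were measured in all 4 channels. Cdh5, Pecam1 and Tie1 were well above background in RTOC alone and so passed the filter only through it. Cdh5 and Tie1 had bounds of at least 5.01-fold and 1.12-fold. For Pecam1 no bound can be given, and the alternative background correction gave 1.42-fold. The part of these cells in the ratios of Ccl25, Cxcl12 and Ccl19 was not tested.

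Among the other homeostatic or mixed-role ligands, Cxcl13, Cxcl14 and Cx3cl1 were called higher, Cxcl16 was called lower, and Ccl27a, a skin-associated ligand of Ccr10, was not called (log2 ratio 0.36, adjusted p = 0.333). Cxcl13, which attracts B cells, read 31.9 and 318 at E14.5 and 90.2 and 951 at E15.5, a log2 ratio of 3.36 ± 0.06 (adjusted p = 0.0018). The E14.5 2D value was not well above background, and the alternative background correction ended the call (log2 ratio 1.04, adjusted p = 0.0523). Cxcl14 read 312 and 1316 at E14.5 and 466 and 1447 at E15.5, a log2 ratio of 1.86 ± 0.31 (adjusted p = 0.0074), or 1.21 with the alternative background correction.

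Cx3cl1, a membrane-bound chemokine also called fractalkine, read 2861 and 6222 at E14.5 and 4888 and 10370 at E15.5. The log2 ratios of 1.12 and 1.09 had an adjusted p of 0.0274, and the call was lost with trend and robust fitting (adjusted p = 0.0569) and with no replicate block (0.121). A second probe of the gene was below background in every channel. Cxcl16, which is also made with a membrane anchor and binds Cxcr6, moved the other way. It read 6036 and 2062 at E14.5 and 6186 and 1854 at E15.5, a log2 ratio of −1.64 ± 0.13 (adjusted p = 0.0089), and its second probe gave −1.20 ± 0.12 (adjusted p = 0.022). The values of the 2 cultures did not overlap with either probe.

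The inflammatory chemokines did not move together. Of 19 genes with a probe, 18 were tested, 5 were called higher, 6 lower and 7 were not called, beside 15.4% higher and 12.7% lower among all genes, and the median log2 ratio was 0.00 (0.56 at E14.5 and −0.50 at E15.5). With the alternative background correction 1 gene was called higher and 5 lower, and with no replicate block 7 were called in all. The sign of this median changed with the settings, whereas that of the homeostatic list was positive in all of them. Split by class, the median log2 ratio was 3.13 for the 3 interferon-induced CXC genes, or 0.43 with 2 of them at their bounds, −2.61 for 4 tested neutrophil-attracting CXC genes and −0.20 for 11 inflammatory CC genes. With the alternative background correction these medians were 0.46, −1.14 and −0.12, and none, 2 and 4 genes were called instead of 3, 3 and 5. With no replicate block 2 of the CC genes and 2 of the neutrophil-attracting genes were called. Of the 11 CC genes, 5 had opposite signs on the 2 arrays.

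Of the 3 interferon-induced ligands of Cxcr3, Cxcl10 was measured in all 4 channels and called higher in RTOC, whereas Cxcl9 and Cxcl11 passed the filter only through RTOC and have a bound. Cxcl10 read 561 in 2D culture and 7133 in RTOC at E14.5, and 1491 and 4121 at E15.5. Both RTOC values exceeded both 2D values, and the log2 ratios of 3.67 and 1.47 had a mean of 2.57 ± 1.56 (adjusted p = 0.0212). Cxcl9 read 28.6 and 298 at E14.5 and 17.6 and 139 at E15.5, and Cxcl11 read 20 and 297 and then 22.8 and 117. The 2D values of both genes were not well above background, so that Cxcl9 was at least 1.35-fold and Cxcl11 at least 1.31-fold higher in RTOC. The adjusted p of 0.0022 and 0.0058 belong to fitted ratios over these 2D signals. RefSeq lists Cxcl11 as a transcribed pseudogene in its C57BL/6J reference. None of the 3 was called under the alternative background correction, with log2 ratios of 1.99, 0.43 and 0.46 and adjusted p of 0.0607, 0.118 and 0.151.

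Of the inflammatory CC ligands, Ccl8 and Ccl11 were called higher and Ccl2, Ccl7 and Ccl6 lower. Ccl8, a monocyte attractant, read 128 and 1191 at E14.5 and 250 and 2311 at E15.5, a log2 ratio of 3.21 ± 0.01 (adjusted p = 0.0019), or 1.61 with the alternative background correction. Ccl11, which attracts eosinophils through Ccr3, read 383 and 718 at E14.5 and 195 and 1388 at E15.5. Its log2 ratios of 0.90 and 2.83 had an adjusted p of 0.0384, and the alternative background correction ended the call (log2 ratio 1.04, adjusted p = 0.0755), as did the fit with no replicate block (adjusted p = 0.054).

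Ccl2, the main ligand of Ccr2 on monocytes, read 54571 in 2D culture and 13452 in RTOC at E14.5, and 13759 and 4494 at E15.5. Both 2D values exceeded both RTOC values, although the 2D value at E15.5 was barely above the RTOC value at E14.5. The log2 ratios were −2.02 and −1.61 (adjusted p = 0.0076, and 0.171 with no replicate block), and the 10 spots of this probe had an SD of 0.03 on either array. Ccl7, another Ccr2 ligand, read 6610 and 777 at E14.5 and 1782 and 416 at E15.5, a log2 ratio of −2.59 ± 0.70 (adjusted p = 0.0051, and 0.0561 with no replicate block), and its second probe gave −2.79 ± 0.76, against −1.89 and −1.85 with the alternative background correction. Ccl6, a CC chemokine of myeloid cells, read 32170 and 4122 at E14.5 and 41605 and 5922 at E15.5, a log2 ratio of −2.89 ± 0.11 (adjusted p = 0.0023).

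The remaining 6 CC genes were not called. Ccl3 and Ccl4, the macrophage inflammatory proteins, gave 0.74 and 1.0 at E14.5 and −0.16 and −0.58 at E15.5. Ccl5, an attractant of T cells and monocytes, gave −0.20 ± 0.30 with one probe and −0.60 ± 0.15 with the other, and Ccl9 gave 0.32 ± 0.38. Ccl12, a Ccr2 ligand, gave 0.77 and −1.97 and thus moved in opposite directions.

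Ccl24, an eosinophil attractant, showed the widest split between the arrays of any member. Its brighter probe read 67.2 in 2D culture and 244 in RTOC at E14.5, and 1508 and 148 at E15.5. The outlying value is that of 2D culture at E15.5, and the second probe had the same pattern, with 18.0, 84.6, 545 and 44.0 in the same order. The log2 ratios were 1.86 and −3.34 for the first probe and 2.23 and −3.63 for the second, and neither was called (adjusted p = 0.65 and 0.704). The 2D values at E14.5 of both probes and the RTOC value at E15.5 of the second were not well above background, so that the sizes of the ratios that rest on them are uncertain. With the alternative background correction the ratios were 0.47 and −1.74 for the first probe and 0.20 and −0.89 for the second. Of all tested probes, 0.249% moved by 2-fold or more on both arrays with opposite signs.

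Markers of myeloid cells, a source of CC chemokines, were called higher in RTOC for 7 of 12 genes and lower for none. Their summed intensity was 94629 and 88616 in 2D culture and 233757 and 287752 in RTOC, at E14.5 and E15.5 respectively. Lyz2 alone read 58013 and 48100 in 2D culture and 123710 and 168098 in RTOC. The other 5 markers, Cd14, Cd68, Fcgr3, Itgam and Itgax, were not called. The part of myeloid cells in the ratios of Ccl2, Ccl7 and Ccl6, called lower, and of Ccl8 and Ccl11, called higher, was not tested.

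The neutrophil-attracting CXC chemokines included the largest decrease among the members. Ppbp, the precursor of platelet basic protein and of a Cxcr2 ligand, read 65475 in 2D culture and 851 in RTOC at E14.5, and 54736 and 625 at E15.5. The cultures were far apart and the 2 stages alike, and the log2 ratio of −6.36 ± 0.13 (adjusted p = 0.0016) corresponded to an 82.1-fold lower signal in RTOC, the 6th lowest ratio of all tested probes. The alternative background correction gave −5.65. Pf4, platelet factor 4, read 16244 and 2286 at E14.5 and 26838 and 2411 at E15.5, a log2 ratio of −3.15 ± 0.46 (adjusted p = 0.0024).

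Ppbp and Pf4 are known as products of megakaryocytes and platelets. Of 8 other markers of that lineage 3 were tested, and only Gp1bb was well above background in all 4 channels. Gp1bb read 244 and 107 at E14.5 and 322 and 178 at E15.5 and was called lower, with a log2 ratio of −1.02 ± 0.24 (adjusted p = 0.0372, and −0.27 with the alternative background correction). Clec1b, with 230 and 191 in RTOC and 2D values not well above background, passed the filter only through RTOC. It was at least 1.29-fold higher in RTOC, and its call belongs to a fitted ratio over these 2D signals. With the alternative background correction its log2 ratio was 0.47. Treml1 was not called. Gp1ba, Gp6, Gp9 and Itga2b were not well above background in any channel. The summed intensity of the 8 markers was 430 and 514 in 2D culture and 503 and 548 in RTOC. The part of this lineage in the ratios of Ppbp and Pf4 was not tested.

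Cxcl1, a ligand of Cxcr2, read 1206 and 366 at E14.5 and 356 and 169 at E15.5, so that the 2D value at E15.5 lay below the RTOC value at E14.5. The log2 ratio of −1.40 ± 0.46 was called (adjusted p = 0.0205), but not under the alternative background correction (−0.66, adjusted p = 0.114) or with no replicate block (adjusted p = 0.201). Cxcl3 carries an older name in the array design and therefore fell outside the members, but it was in the list of neutrophil-attracting genes. It read 1083 and 89.4 at E14.5 and 1373 and 83.7 at E15.5, a log2 ratio of −3.82 ± 0.31 (adjusted p = 0.0017), or −1.63 with the alternative background correction. Cxcl2 was well above background only in 2D culture at E15.5 and was not tested. The alternative background correction gave a 1.14-fold lower signal in RTOC, and no lower limit on the difference can be given. Cxcl5, the remaining Cxcr2 ligand, read 533 and 691 at E14.5 and 720 and 994 at E15.5 and was not called (log2 ratio 0.42 ± 0.06, adjusted p = 0.253).

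Many of these genes are neighbours in the mouse genome, and neighbours did not always share a direction. Only protein-coding genes and transcribed pseudogenes were counted as neighbours. In the order of the RefSeq annotation of GRCm38.p6, the first group on chromosome 5 runs Cxcl5, Ppbp, Pf4, Cxcl3, Cxcl15, Cxcl1 and Cxcl2 with no other such gene between them. Ppbp, Pf4, Cxcl3 and Cxcl1 were lower in RTOC, Cxcl5 at the end of the group was not called, and Cxcl15 and Cxcl2 were not tested. Cxcl9, Cxcl10 and Cxcl11 form a second group on the same chromosome, with 1 other gene between the first and the second of them, and were all higher, Cxcl9 and Cxcl11 by a bound. On chromosome 11, Ccl2 and Ccl7 were lower, whereas Ccl11, next to Ccl7, and Ccl8, which lies beyond Ccl12, were higher. In the second group of that chromosome Ccl6 was lower, while Ccl5, Ccl9, Ccl3 and Ccl4 on both sides of it were not called. On chromosome 8, Cx3cl1 was higher and stands between Ccl22, which was not tested, and Ccl17.

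**Figure D3:**
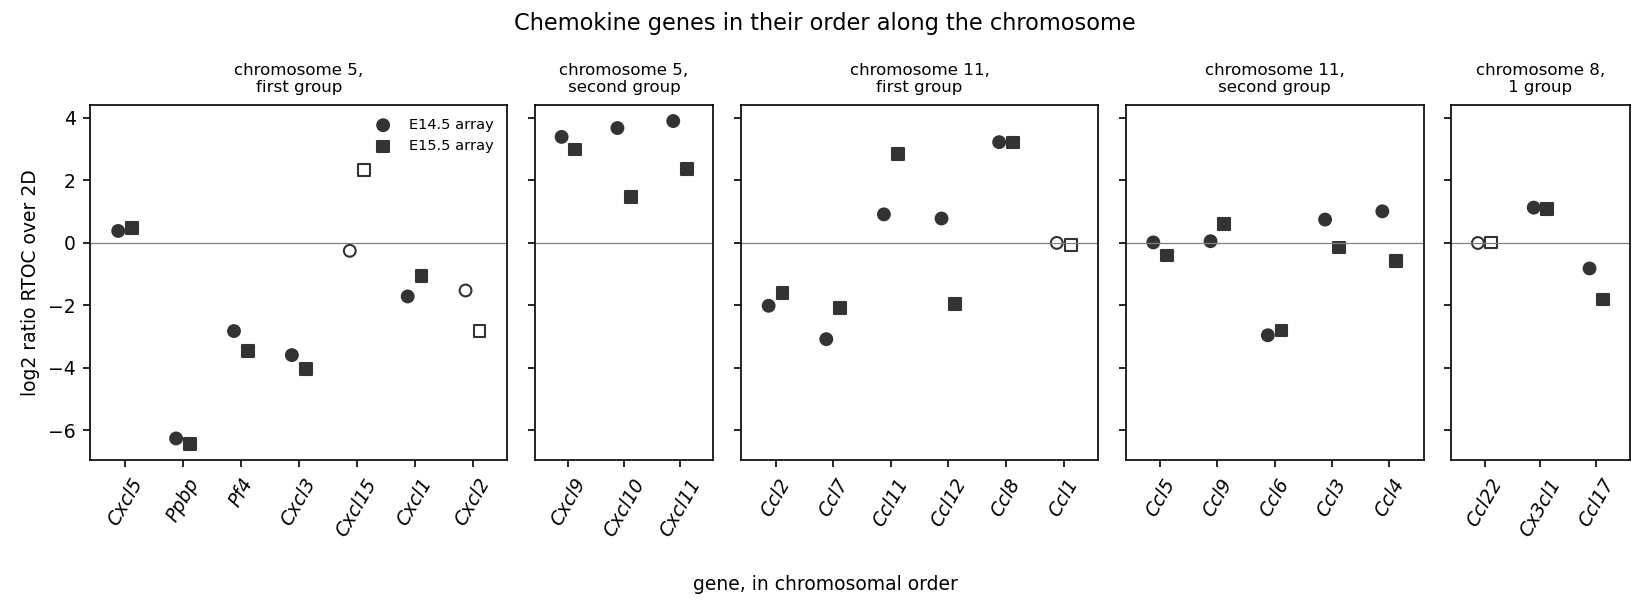
Log2 ratio of RTOC over 2D culture for the brightest probe of each gene, in the order of 5 groups of neighbouring chemokine genes, with circles for the E14.5 and squares for the E15.5 array; open symbols were not tested and the spacing is not to scale. Ppbp to Cxcl3 lie below 0, Cxcl9 to Cxcl11 above 0, and Ccl2 and Ccl7 lie below 0 beside Ccl11 and Ccl8 above 0.

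Of 18 receptor genes, 10 had a tested probe, 3 were called higher in RTOC, none was called lower and 7 were not called, a share near the 28.1% called among all genes. The median log2 ratio was 0.38 for receptors, or 0.18 with genes measured in only 1 culture at their bounds, and 0.34 for the 28 tested ligands by either reckoning. Of the ligands, 11 were called higher, 8 lower and 9 were not called.

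Cxcr4, the receptor of Cxcl12, read 321 and 1002 at E14.5 and 215 and 1716 at E15.5. Its log2 ratios of 1.64 and 2.99 had a mean of 2.32 ± 0.95 (adjusted p = 0.0109), and a second probe gave 1.59 ± 0.71 (adjusted p = 0.0213). These means were 1.32 and 0.65 with the alternative background correction. Like Cxcl12, Cxcr4 had a lower 2D value and a larger ratio on the E15.5 array, in a comparison that was not tested. This was not particular to the pair. Ccl11, the mesenchymal markers Pdgfra, Dcn and Lum and the endothelial markers Kdr and Emcn had it too, whereas Col3a1, Thy1 and Esam did not.

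Ackr4, an atypical receptor that scavenges Ccl19, Ccl21 and Ccl25, read 108 and 701 at E14.5 and 318 and 2337 at E15.5, a log2 ratio of 2.79 ± 0.13 (adjusted p = 0.0024), or 1.56 with the alternative background correction, and was not called with no replicate block (adjusted p = 0.0588). The second probe of Ackr4 was below background in every channel. Cx3cr1, the receptor of Cx3cl1 on macrophages and other myeloid cells, read 80.0 and 387 at E14.5 and 113 and 381 at E15.5, a log2 ratio of 2.01 ± 0.37 (adjusted p = 0.0063), which fell to 0.65 (adjusted p = 0.0481) with the alternative background correction. Its 2D value at E14.5 was not well above background, and its second probe was dim throughout.

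Ccr9 and Ccr7, the receptors through which Ccl25, Ccl19 and Ccl21 act on thymocytes, were dim in these deoxyguanosine-treated cultures and were not called. Ccr9 read 45.1 and 56.3 in 2D culture, not well above background on either array, and 74.5 and 66.8 in RTOC (log2 ratio 0.49, adjusted p = 0.223). Ccr7 was well above background in all 4 channels and read 117 and 145 at E14.5 and 105 and 70.4 at E15.5 (log2 ratio −0.14, adjusted p = 0.759).

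Ccr6, Ccrl2, Cxcr6 and Xcr1 were also tested and not called, with log2 ratios of their brightest probes from −0.27 to 0.81. Of these, Ccrl2, a receptor-like protein that presents chemerin, gave the highest at 0.81 ± 0.26 (adjusted p = 0.0691). In all, 15 genes had no tested probe. No probe of 11 of them was well above background in any channel, namely Ccl1, Ccl20, Ccl22, Xcl1, Ccr1, Ccr10, Ccr1l1, Ccr2, Ccr3, Ccr4 and Ccr8. Ccl28, Cxcl2, Cxcl15 and Cxcr3 passed that level in 1 channel each. Ccr2 and Cxcr3, the receptors of Ccl2 and of Cxcl9 to Cxcl11, were thus not measured at a level that allows a ratio.

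The array had several probes for 17 member genes, and 9 of these genes had at least 2 tested probes, whose mean ratios had the same sign in all 9. The sizes differed more than the signs. The probes of Ccl25 ranged from 0.78 to 6.96 on the log2 scale, those of Ccl19 from 2.83 to 4.53 and those of Cxcr4 from 1.59 to 2.32, whereas those of Ccl7 ranged from −2.79 to −2.59. Second probes of Ackr4, Cx3cr1, Cx3cl1 and Xcr1 were below background in every channel while the first were measured.

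**Figure D4:**
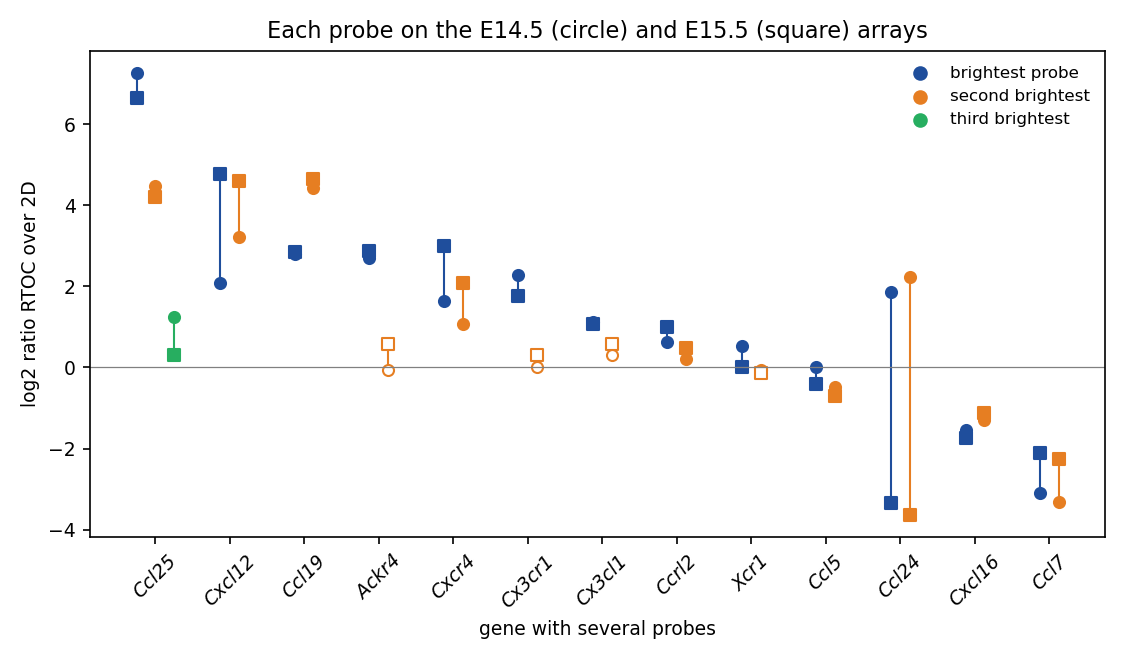
Log2 ratio of RTOC over 2D culture for every probe of the 13 genes with several probes and at least 1 tested probe, ordered by the brightest probe, with circles for the E14.5 and squares for the E15.5 array joined by a line; open symbols were not tested. The 3 probes of Ccl25 have means of 6.96, 4.34 and 0.78, and both probes of Ccl24 span 0.

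Genes that act with these receptors but are not members were described from a separate list. Of 17 signalling genes downstream of chemokine receptors, all were tested, 5 were called higher (Arrb1, Arrb2, Pik3cg, Rac2 and Rgs2), Rgs16 was called lower and 11 were not called, beside the 28.1% called among all genes. The median log2 ratio was 0.73, or 0.46 with genes measured in only 1 culture at their bounds. Rgs2, a regulator of G-protein signalling, gave 2.27 ± 0.40 (adjusted p = 0.0046), and Rgs16, another such regulator, gave −2.92 ± 0.41 (adjusted p = 0.0026). The latter was −2.31 with the alternative background correction. The bound for Pik3cg, whose 2D signals were near background, was an at least 1.1-fold higher signal in RTOC. Of 10 further genes of the chemokine system, Rarres2, the gene of chemerin, was called higher (2.48 ± 1.09, adjusted p = 0.0114, and 1.58 with the alternative background correction), 4 were not called and 5 were not tested. Ackr3, the atypical receptor of Cxcl12, gave −0.34 at E14.5 and 3.04 at E15.5 and was not called (adjusted p = 0.231).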

How the data were processed

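RNA of 4 cultures was hybridized to 2 two-colour Agilent whole mouse genome arrays, on 1 slide and in 1 scan. The deposited scanner files, made by the authors with Feature Extraction, hold each spot's signal as an intensity, background-subtracted and dye-normalized within the array, and a log10 ratio of Cy5 over Cy3. The submitters' processing notes name version 11.5.1.1 and the file headers 9.1.3.1. The labels name TRIzol for RNA extraction and the methods a column kit. The deposited table of series values equals the log10 ratio of these processed signals (column medians −0.02 at E14.5 and −0.07 at E15.5) and had not been quantile normalized between arrays. Following the methods, the processed intensities of the 4 channels were quantile normalized here. Outlier spots were left out, spots of a probe were averaged and the log2 ratio of RTOC over 2D culture was tested against 0 with limma 3.58.1 in R 4.3.3 (lmFit, eBayes, two-sided) on 23681 probes, where p-values were adjusted by Benjamini-Hochberg and called under 0.05. The E15.5 array is replicate 1 and the E14.5 array replicate 2. Well above background were 53.1% of probes in 2D culture and 56.3% in RTOC at E14.5, and 53.5% and 60.9% at E15.5, and the number of arrays limits the precision. Pearson's r between the arrays over tested probes was 0.827. Probes were named through RefSeq, 22951 by accession, 6659 by symbol and 3109 by an older symbol, and 8455 kept the file's name. Genes with several probes are represented in lists by the probe of highest mean log2 intensity. An "at least" fold compares the bright culture with the lowest signal well above background, per channel after normexp (offset 50), loess and Aquantile normalization, and may carry dye bias. Where the dim culture's own signals are higher on both arrays, they are used and the value is no limit. All genes of the thymic and inflammatory lists were named, as was any other member called or changed at least 2-fold the same way on both arrays. Members and lists were chosen with earlier results of these data known. Some single genes counted in the totals are not reported here by name. The steps were tested on simulated data. Alternatives were normexp with loess, centring on medians, the deposited log10 ratios, no filter, a stricter filter, outlier spots kept, eBayes with trend and robust fitting, channels unpaired (no replicate block), the methods' t-test and each array left out.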

Additional observations from a re-analysis of the deposited data

Results flagged for a closer look

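Ccl24 moved in opposite directions on the 2 arrays with both of its probes. The log2 ratio of RTOC over 2D culture was 1.86 (brighter probe) and 2.23 (second probe) at E14.5, against −3.34 and −3.63 at E15.5. The 2D signals at E14.5 of both probes and the RTOC signal at E15.5 of the second were not well above background, and normexp with loess gave 0.47 and 0.20 at E14.5 and −1.74 and −0.89 at E15.5. Each stage had 1 array, so that the difference between them was not tested.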

How the results depend on the processing

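Of all probes, 6818 were called, against 3716 with normexp and loess, 4030 with no replicate block and 0 both without a filter on dim probes and with the methods' t-test, where limma and the t-test gave 10666 and 3538 probes at an unadjusted p under 0.05. Of the member probes, 28 were called, against 20 with normexp and loess, 19 with no replicate block and 0 both without the filter (27 unadjusted) and with the t-test (13 unadjusted). Stage and array pair the channels by construction. Centring on medians moved the median ratio of tested probes to 0.15 and the share of higher calls from 52.9% to 65.1%, and trend with robust fitting moved it to 41.1%. Ccl25 kept its value of 6.96 but had an adjusted p of 0.117 without the filter and 0.328 with the t-test. The homeostatic median of 2.83 became 1.65 with normexp and loess, 3.0 on centring, 2.25 without the filter, 3.13 with the stricter filter and 3.67 over all probes of each gene, and ranged from 2.77 to 2.86 without either replicate. The inflammatory median of 0.00 turned negative at −0.20 without the filter, −0.20 with the stricter filter and −0.10 over all probes, and ranged from −0.50 to 0.56 without either replicate. The inflammatory CC median of −0.20 turned positive at 0.0036 with the stricter filter and ranged from −0.58 to 0.74 without either replicate. Of 29 named genes compared, Ccl25 not among them, 21 were called in the main fit. All 21 lost the call without the filter and with the t-test. With no replicate block 8 lost it, and with normexp and loess 7 did. Those lost with no replicate block were Ackr4, Ccl2, Ccl7, Ccl11, Ccl17, Ccl19, Cx3cl1 and Cxcl1, with adjusted p from 0.0508 to 0.201, and those lost with normexp and loess were Ccl11, Ccl17, Cxcl1, Cxcl9, Cxcl10, Cxcl11 and Cxcl13. Trend with robust fitting ended the call of Cx3cl1 (adjusted p = 0.0569). The normexp setting added an offset of 50 to each signal, which draws the ratios of dim probes toward 0. Its part in these changes, and any other cause, was not tested. Leaving out an array leaves 1 and so gives values but no test.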
